A study of Mus musculus with 8 samples.

Results

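A group of 10 genes was followed across the cell types of kidneys in which Trim28 had been deleted in nephron progenitors. They are 10 of the 32285 genes counted, Tcfl5, Sh3bgr, Svopl, Gabrg3, Gm42047, Gm11100, Gm49708, Gm47547, Gm26640 and D7Ertd128e. They had been picked because they looked nearly absent in control cells and present in Trim28-deleted cells of the nephron lineage, so their difference between the genotypes in that lineage is a description here and carries no test. What was tested is how their levels differed between cell types of the Trim28-deleted mice, their levels outside the lineage, and the genes around them. The choice did not use the order of the cell types or the genes around them. Whether it used control cells outside the lineage is not stated, so control levels there may be low by the choice.

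The kidneys of 2 male Trim28Δ/Δ embryos (mice 1 and 2) and 2 male Trim28f/f control embryos (mice 3 and 4) were sequenced as a single pool by 3′ single-cell RNA sequencing. The labels give embryonic day 17.5, whereas the methods give a later day. All 4 mice carried loxP sites in both copies of Trim28, and the Trim28Δ/Δ mice also carried a Six2-EGFP/cre transgene, in which the Six2 promoter drives Cre in nephron progenitor cells (NPCs), so that all cells derived from them inherit the deletion. The cells of each mouse carried a lipid-anchored DNA tag (cell multiplexing oligonucleotide) that was read in a library of its own. For differences between genotypes, p-values measure the spread between 2 mice per genotype. For differences between cell types of the Trim28Δ/Δ mice, they measure how these differences scatter between the same 2 mice. A further 4 tags without a name in the tag list marked 4508 cells of the pool, which were left out, and free RNA comes from the whole pool.

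TRIM28 is a corepressor that KRAB zinc finger proteins bring to DNA, where it assembles enzymes that write repressive H3K9 methylation, mostly over transposable elements. Genes that lie close to such elements can be read in tissues where they are normally off once this repression is lost. In the kidney the Six2+ progenitors pass through the renal vesicle and the S-shaped body (SSB) and give rise to podocytes, the proximal tubule (PT, with an early stage, ErPT), the loop of Henle and the distal tubule, whereas the collecting duct, stroma, endothelium and blood cells have other origins.

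Of the 10 genes, 4 encode proteins. Tcfl5 (chr2:180621956-180642708, minus strand) encodes a basic helix-loop-helix transcription factor known from the testis, Sh3bgr (chr16:96200450-96228935, plus strand) an SH3-binding glutamic acid-rich protein known from heart and skeletal muscle, Svopl (chr6:37983739-38046996, minus strand) a putative transporter related to the synaptic vesicle protein SVOP, and Gabrg3 (chr7:56716465-57387188, minus strand) the gamma 3 subunit of the GABA-A receptor, a chloride channel of neurons. The other 6 are annotated without a protein. Gm42047 (chr8:121833247-121841178), Gm26640 (chr6:72953236-72957247) and D7Ertd128e (chr7:30885031-30886446), all on the plus strand, are lincRNAs. Gm47547 (chr14:41053653-41061614, plus strand) is antisense to Dydc2, Gm11100 (chr14:13918444-13949558, plus strand) is a processed transcript that overlaps Thoc7 on the opposite strand, and Gm49708 (chr16:90341595-90349642, minus strand) is a processed transcript that overlaps Gm49709 on the opposite strand. Positions are those of GRCm38 in the GENCODE M21 annotation, and the 10 genes lie on 6 chromosomes.

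Sequence upstream of the start was held by the RefSeq promoter table (GRCm38.p6) for 5 of the genes, Tcfl5, Svopl, Gabrg3, Gm11100 and D7Ertd128e. The 250 bases before the start of 3 of them are shown 5′ to 3′, because they hold a searched motif. The motifs searched, on both strands, were the TATA box (TATAAA), the CCAAT box (CCAAT), the GC box (GGGCGG), the E-box (CACGTG) and the cyclic AMP response element core (TGACGT), and capitals mark the matches, none of which overlapped.
Tcfl5, chr2:180642692-180642941, minus strand: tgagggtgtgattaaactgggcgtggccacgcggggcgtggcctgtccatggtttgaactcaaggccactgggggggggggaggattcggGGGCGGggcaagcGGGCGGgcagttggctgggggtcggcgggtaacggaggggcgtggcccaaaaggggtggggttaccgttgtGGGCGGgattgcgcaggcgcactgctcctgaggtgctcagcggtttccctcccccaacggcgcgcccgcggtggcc
Gabrg3, chr7:57387216-57387465, minus strand: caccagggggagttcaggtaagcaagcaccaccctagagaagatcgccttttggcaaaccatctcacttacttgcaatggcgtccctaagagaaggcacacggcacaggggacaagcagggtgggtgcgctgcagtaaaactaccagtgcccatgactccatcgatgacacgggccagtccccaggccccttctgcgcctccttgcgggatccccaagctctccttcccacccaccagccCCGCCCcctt
Gm11100, chr14:13918194-13918443, plus strand: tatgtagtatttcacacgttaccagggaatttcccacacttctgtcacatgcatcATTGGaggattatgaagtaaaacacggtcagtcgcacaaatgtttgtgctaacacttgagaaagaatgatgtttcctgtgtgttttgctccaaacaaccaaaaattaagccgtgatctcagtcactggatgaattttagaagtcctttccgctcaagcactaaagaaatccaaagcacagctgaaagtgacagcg

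The upstream bases of Tcfl5 were 70.4% G and C and held CpG at 0.784 of the number expected from base composition, with GC boxes that begin at positions -160, -147 and -76 from the start. Those of Gabrg3 held CpG at 0.41 of expectation with a GC box at position -10, and those of Gm11100 were 40.8% G and C and held CpG at 0.578 of expectation with a CCAAT box at position -195. Svopl and D7Ertd128e stood at 0.233 and 0.205 of expectation and held none of the motifs. Among all promoters of the table the median was 0.374, and a GC box was held by 32.7%, a CCAAT box by 33.8%, a TATA box by 12.4%, an E-box by 6.02% and a response element core by 6.47%. The start that RefSeq gives for D7Ertd128e lies at position -3078 from the GENCODE start, and its window therefore lies away from the transcript counted.

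Levels are given as CPM, the unique molecular identifiers of a gene (UMIs, 1 for each captured RNA molecule) scaled to 1000000 UMIs of all genes in the cells of a mouse or class. The level of the Trim28 transcript was read first. The deleted gene keeps its last exons, so 3′ counts show the transcript level and not the missing exons. In all lineage cells together Trim28 stood at 26.6 and 27.1 CPM in Trim28Δ/Δ mice 1 and 2 and at 108 and 129 CPM in Trim28f/f mice 3 and 4, whereas in the other cells it stood at 93.1, 103, 86.7 and 108 CPM. Cells were clustered and named by markers, and a name with the ending "-like" rests on those markers alone. The renal vesicle-like name rests on 6 raised markers, none of which was among the 10 leading genes of the cluster. Those held Pcp4, Lsp1 and Wt1, a transcription factor gene known from progenitors and podocytes. The SSB-like cluster and 1 PT-like cluster (408 cells) likewise had no marker among their 10 leading genes, and at resolution 1.2 the cells led by cell cycle genes fell into unnamed clusters. Trim28 fell in 7 of the 9 lineage classes, by between 1.5 (SE 0.16, adjusted p = 0.0186) in PT-like and 2.67 (SE 0.21, adjusted p = 0.000408) in NPC-like cells on the log2 scale (edgeR quasi-likelihood test, Benjamini-Hochberg). In PT-like cells Trim28 stood at 24.4 and 24.9 CPM against 58.5 and 78.6 CPM in the controls. In NPC-like cells it stood at 28.6 and 23.7 CPM against 138.5 and 160 CPM. It missed the threshold in the loop of Henle-like class (lower by 1.54, SE 0.23, adjusted p = 0.0672) and podocyte-like cells (lower by 1.6, SE 0.39, adjusted p = 0.207) and in all 9 other classes tested. The lineage held 841, 978, 1749 and 1277 cells of mice 1 to 4, and the other classes 475, 513, 1000 and 530, with a median of 16386 to 17354 UMIs per cell in each mouse. PT-like cells were 314, 339, 154 and 188 of the lineage cells, and NPC-like cells 47, 74, 214 and 390. Levels over the whole lineage therefore mix classes in shares that differ between the genotypes. The part of this in the differences was not tested. A loop of Henle-like cluster held 104 of its 106 cells from mouse 3, and a collecting duct-like cluster 175 of its 176 cells. With clustering at resolution 1.2, an ErPT-like cluster led by Mt1 and Mt2 held 220 of its 265 cells from mouse 3.

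In lineage cells all 10 genes were higher in both Trim28Δ/Δ mice than in both Trim28f/f mice, which the choice of the genes fixes. For comparison, 26.9% of all genes with at least 10 UMIs there met the same count. Gm11100 stood at 188 and 229 CPM against 11.4 and 9.59 CPM. Gm49708 stood at 172 and 190 CPM against 24.8 and 44.9 CPM. For both genes the genotypes lay well apart, and the control mice differed more from each other in Gm49708 than in Gm11100.

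The protein-coding genes were followed next. Sh3bgr stood at 44.2 and 44.9 CPM in the Trim28Δ/Δ mice against 7.31 and 6.69 CPM in the controls. Tcfl5 stood at 7.14 and 9.73 CPM against 0.471 and 0.472 CPM. Gabrg3 stood at 2.99 and 3.69 CPM against 0.471 and 0.472 CPM, and the control values of both genes rest on 17 and 13 UMIs. Svopl, at 20.8 and 21.5 CPM against 12.2 and 13.5 CPM, had the smallest ratio of means of the 10 (1.65).

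The remaining noncoding genes fell into those near 0 in controls and 1 that was not. Gm47547 stood at 12.3 and 12.8 CPM against 0.664 and 1.2 CPM, Gm26640 at 9.53 and 11.4 CPM against 0.415 and 0.291 CPM, and D7Ertd128e at 6.65 and 7.48 CPM against 0.471 and 0.436 CPM. Gm42047 stood at 24.3 and 29.8 CPM against 13.8 and 12 CPM. The plot of levels per mouse shows both genotypes side by side, in the lineage and outside it.

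**Figure D1:**
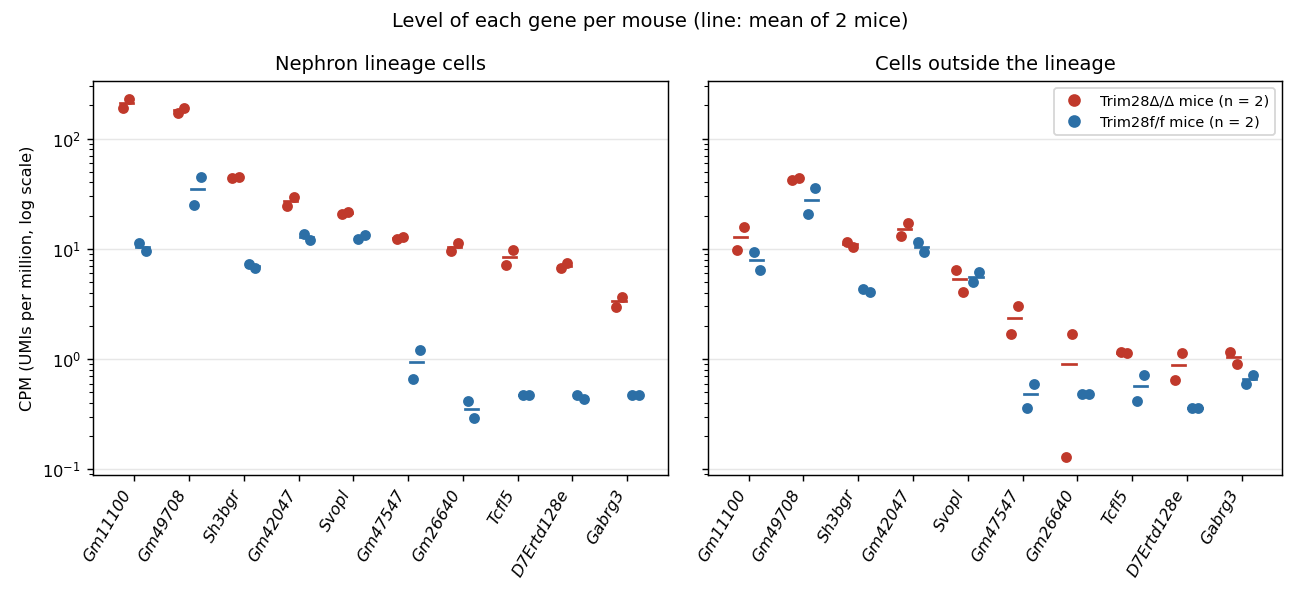
Level of each of the 10 genes in CPM (log axis) in nephron lineage cells (left) and in all other cells (right), 1 point per mouse (2 Trim28Δ/Δ, red; 2 Trim28f/f, blue) and a line at the mean of 2 mice. In lineage cells the red points lie above the blue ones for all 10 genes, from 188 and 229 against 11.4 and 9.59 CPM for Gm11100 to 20.8 and 21.5 against 12.2 and 13.5 CPM for Svopl, and outside the lineage the points of the genotypes lie closer together.

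Near absence in the controls therefore held for 5 of the 10 genes (Tcfl5, Gabrg3, Gm47547, Gm26640 and D7Ertd128e), whose control means were at most 1.5 CPM. The other 5 were read in control lineage cells at means between 7.0 CPM (SD 0.439, n = 2, Sh3bgr) and 34.8 CPM (SD 14.2, n = 2, Gm49708). At a control mean of at most 1.5 CPM and a Trim28Δ/Δ mean of at least 3 CPM, limits set after the values were seen, 62 further genes matched those 5. Among the 13381 genes with at least 50 UMIs in Trim28Δ/Δ lineage cells, ordered by the difference of log2(CPM + 1), Gm11100 took rank 1, Gm26640 rank 5, Gm47547 rank 9, Tcfl5 rank 12, Sh3bgr rank 18, D7Ertd128e rank 19 and Gm49708 rank 20, whereas Gabrg3 took rank 71, Gm42047 rank 273 and Svopl rank 687. Free RNA in the droplets, read from barcodes with 10 to 100 UMIs, held Gm26640 at 4.72 CPM and Tcfl5 at 2.36 CPM, and at the share of free RNA estimated for control lineage cells (14.9% and 11.8%) it would give Gm26640 0.704 and 0.558 CPM and Tcfl5 0.352 and 0.279 CPM, against the 0.415 and 0.291 CPM and the 0.471 and 0.472 CPM that were read. It would give D7Ertd128e 0.325 and 0.258 CPM against 0.471 and 0.436 CPM, Gm47547 0.298 and 0.236 CPM against 0.664 and 1.2 CPM, and Gabrg3, of which free RNA held no UMI, 0 CPM.

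In shares of cells, Gm11100 was read in 61.1% (95% exact interval 57.7 to 64.4) and 65% (62 to 68) of the lineage cells of the Trim28Δ/Δ mice and in 12.5% (11 to 14.2) and 11.7% (9.96 to 13.6) of those of the controls. After thinning of each cell to 6800 UMIs the shares were 45.5%, 48.4%, 5.32% and 4.15%. Endothelial-like cells, which do not derive from the nephron lineage, held the gene in 12.6%, 12.4%, 8.12% and 7.21% of cells at median depths of 12503, 11335, 14204 and 11094 UMIs, against 18771, 19218, 17830 and 18798 UMIs in lineage cells. The shares in control lineage cells lay above those in endothelial-like cells of the same mice before thinning, and after thinning they stood at 5.32% and 4.15% against 5% and 2.7%. Free RNA would give Gm11100 5.22 and 4.15 CPM in control lineage cells, against the 11.4 and 9.59 CPM read. At least 1 of the 10 genes was read in 88.3% (86.0 to 90.4) and 93.6% (91.8 to 95) of Trim28Δ/Δ lineage cells and in 58.8% (56.5 to 61.2) and 70.5% (67.9 to 73) of control lineage cells (76.6%, 83.3%, 32.8% and 40.5% after thinning), and at least 3 in 20.8% and 24.2% against 0.915% and 0.548% after thinning. Intervals cover counting error only.

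Within the Trim28Δ/Δ mice the 10 genes did not share 1 pattern over the lineage. All 10 differed between the 9 lineage classes (edgeR quasi-likelihood test with the mouse as a block, adjusted p between 1.4e-17 and 9.07e-07), but so did 78.6% of the 12043 genes tested. None of the 10 was among the genes from which the clusters were built. Between PT-like and NPC-like cells 8 of 10 were called, against 57.4% of all genes. Of the 8, 7 were lower in PT-like than in NPC-like cells (28.1% of all genes were called in that direction) and Gm11100 was higher (29.3%). The course in controls was not tested. There, means in NPC-like and PT-like cells were 56.3 and 22.4 CPM for Gm49708 and 15.5 and 4.75 CPM for Gm42047. They were 9.94 and 2.44 CPM for Sh3bgr and 6.05 and 19.6 CPM for Gm11100. Svopl ran the other way in controls, at 7.11 and 9.40 CPM, and Tcfl5, Gabrg3 and D7Ertd128e stood near 0 in both classes.

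Gm11100 rose from 20.4 and 30.7 CPM in the NPC-like cells of Trim28Δ/Δ mice 1 and 2 to 220.4 and 283 CPM in PT-like cells. The difference was 3.51 on the log2 scale (SE 0.24, adjusted p = 1.28e-13), and 3.37 and 3.17 on the log2(CPM + 1) scale in mouse 1 and mouse 2 taken alone. It stood highest in distal tubule-like cells, at 485 and 466 CPM against 16.5 and 3.23 CPM in the controls, and the next class, ErPT-like cells at 260.5 and 289 CPM, did not overlap with it. In podocyte-like cells the genotypes overlapped, at 36.2 and 18.1 CPM against 18.1 and 25.6 CPM.

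The protein-coding genes had the opposite course. Sh3bgr was highest in SSB-like cells (181 and 103 CPM), which overlapped with NPC-like cells (121 and 125 CPM), and stood at 6.45 and 7.30 CPM in PT-like cells of the Trim28Δ/Δ mice, a fall of 3.91 on the log2 scale (SE 0.33, adjusted p = 1.94e-11). Gabrg3 fell by 4.36 (SE 0.58, adjusted p = 1.62e-07), from 15.3 and 11.2 CPM in NPC-like to 0.387 and 0.58 CPM in PT-like cells of the same mice. These PT-like levels rest on few UMIs. On the log2(CPM + 1) scale its difference was -3.56 in mouse 1 and -2.94 in mouse 2. Tcfl5 fell by 2.15 (SE 0.34, adjusted p = 3.37e-06), from 14.3 and 28.6 to 3.74 and 4.64 CPM. Svopl fell by 1.88 (SE 0.21, adjusted p = 8.29e-09), from 56.2 and 49.5 to 10.4 and 13.6 CPM, at which its control PT-like cells stood as well (10.6 and 8.18 CPM).

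Svopl, whose ratio over the whole lineage was the smallest of the 10, stood further apart in NPC-like cells. There it was at 56.2 and 49.5 CPM against 6.62 and 7.6 CPM in the controls, a ratio of means of 7.43. In controls the gene stood at 15.9 and 25.5 CPM in ErPT-like cells, above its level in control NPC-like cells. Outside the lineage it was highest in intercalated-like cells, acid-base regulating cells of the collecting duct, at 48.2, 20.8, 19.5 and 29.7 CPM in mice 1 to 4, with the genotypes overlapping.

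Among the noncoding genes, Gm49708 and Gm47547 ran together. Gm49708 was highest in ErPT-like cells (474 and 493 CPM), followed without overlap by renal vesicle-like (444 and 377 CPM) and NPC-like cells (339 and 286 CPM), and lowest in the loop of Henle-like class (29.3 and 33.3 CPM). Gm47547 had the same 3 classes at the top, at 30.1 and 27.5, 26.7 and 22.5, and 28.6 and 15.3 CPM, of which the last overlapped with the class before it. Over the 18 sums of 9 classes and 2 Trim28Δ/Δ mice the log2(CPM + 1) values of the pair had a Pearson correlation of 0.936, the highest of the 45 pairs among the 10 genes. These sums share 2 mice and differ in depth, and both genes end in nearly the same sequence. Gm49708 fell by 0.94 from NPC-like to PT-like cells (SE 0.14, adjusted p = 8.05e-07), and Gm47547 was lower by 0.53, which missed the threshold (SE 0.30, adjusted p = 0.136).

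Gm42047, Gm26640 and D7Ertd128e were each highest in SSB-like cells, a class led by cell cycle genes such as Top2a and Ube2c. Gm42047 stood there at 80.3 and 77.5 CPM against 29.4 and 28.1 CPM in controls, Gm26640 at 27.4 and 24.7 CPM against 0.389 and 0 CPM, and D7Ertd128e at 19.2 and 32.2 CPM against 0.519 and 0.977 CPM. D7Ertd128e was next highest in distal tubule-like cells, at 21.8 and 8.67 CPM, a range that overlapped with that of SSB-like cells. In PT-like cells it stood at 0.902 and 0.580 CPM, which rest on 7 and 5 UMIs in 314 and 339 cells, and no UMI was counted in the 154 and 188 control cells. Gm42047 fell from NPC-like to PT-like cells by 2.83 (SE 0.22, adjusted p = 2.55e-12) and D7Ertd128e by 2.21 (SE 0.82, adjusted p = 0.0221), whereas Gm26640 was higher by 1.02, short of the threshold (SE 0.45, adjusted p = 0.0531). The NPC-like level of D7Ertd128e rests on 8 and 2 UMIs, its difference on the log2(CPM + 1) scale was -2.27 in mouse 1 and -0.60 in mouse 2, and with k-means assignment it missed the threshold (adjusted p = 0.0578). For Gm26640 mouse 1 taken alone showed no difference (-0.03) and mouse 2 showed 1.33.

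**Figure D2:**
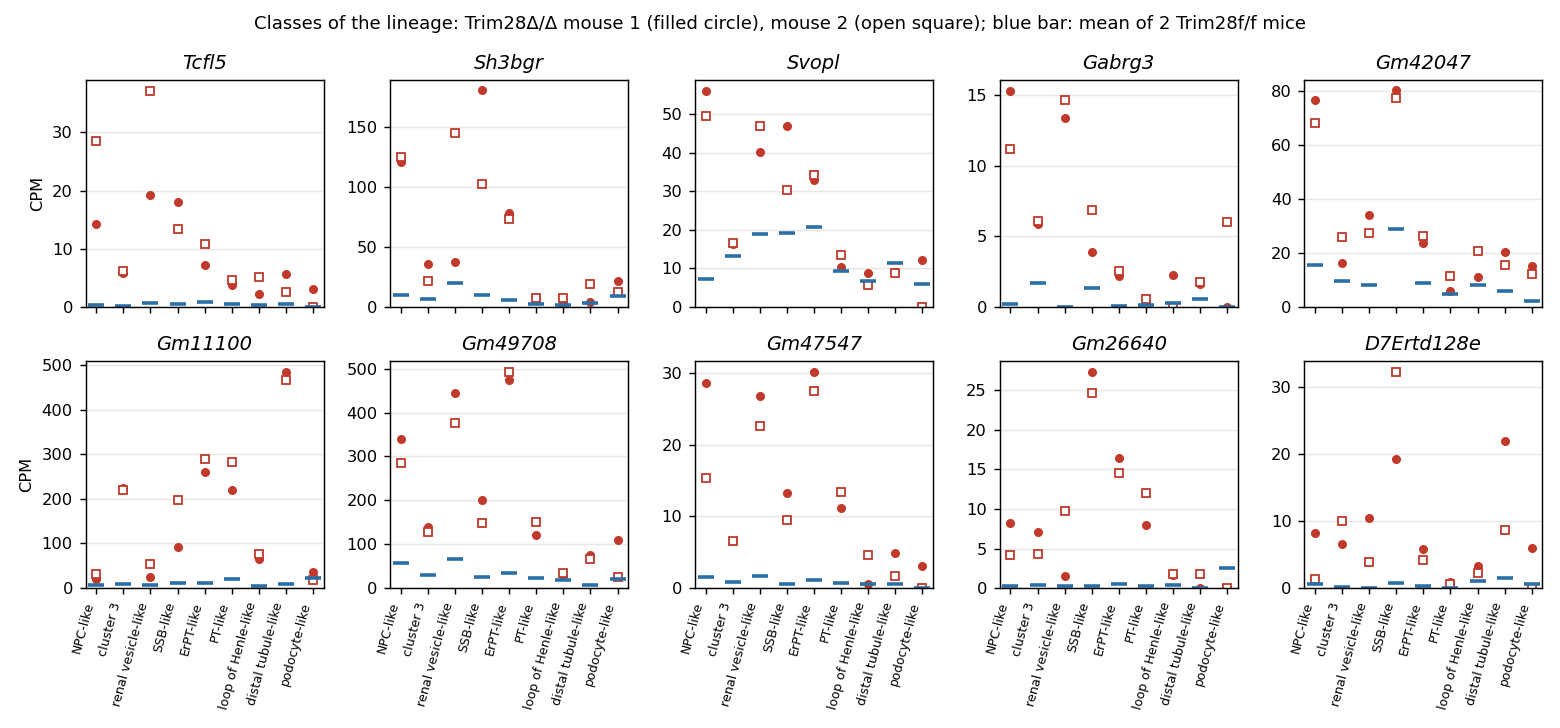
Level of each gene in CPM (each panel with its own axis from 0) in the 9 lineage classes, with Trim28Δ/Δ mouse 1 as filled circles, mouse 2 as open squares and the mean of 2 Trim28f/f mice as blue bars. Gm11100 is low at the left, in NPC-like cells (20.4 and 30.7 CPM), which overlap with podocyte-like cells (18.1 to 36.2 CPM). It is highest in distal tubule-like cells (485 and 466 CPM), whereas Sh3bgr, Svopl, Gabrg3, Tcfl5 and Gm42047 are high on the left and low in PT-like cells.

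Cluster 3 was left without a name, since its leading genes held Fgf8 and Ccnd1, markers of the renal vesicle, beside Irx1 of the SSB. In the Trim28Δ/Δ mice it held Gm11100 at 225 and 220.4 CPM and Gm49708 at 139 and 127 CPM. By the median difference on the log2(CPM + 1) scale, loop of Henle-like and podocyte-like cells were the lineage classes in which the 10 genes stood least apart. It was 1.33 in podocyte-like cells and 1.48 in both PT-like and distal tubule-like cells. Among loop of Henle-like cells 7 of 10 genes were higher in both Trim28Δ/Δ mice (19.6% of all genes), with a median difference of 0.91 on the log2(CPM + 1) scale (1.01 without the cluster of mouse 3, an alternative chosen after the data were seen). In podocyte-like cells, of which there were 27, 16, 65 and 33, 1 of 10 was (19.8% of all genes), namely Gm42047 (15.1 and 12.1 CPM against 4.27 and 0 CPM), on 5 and 2 UMIs against 4 and 0. In NPC-like, SSB-like, ErPT-like, renal vesicle-like cells and cluster 3 it was 10 of 10, against 30%, 16%, 19%, 22.9% and 22.6% of all genes. In PT-like cells it was 8 (22.2%) and in distal tubule-like cells 7 (19.6%). As the genes were chosen on the lineage, nothing is read from these counts.

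**Figure D3:**
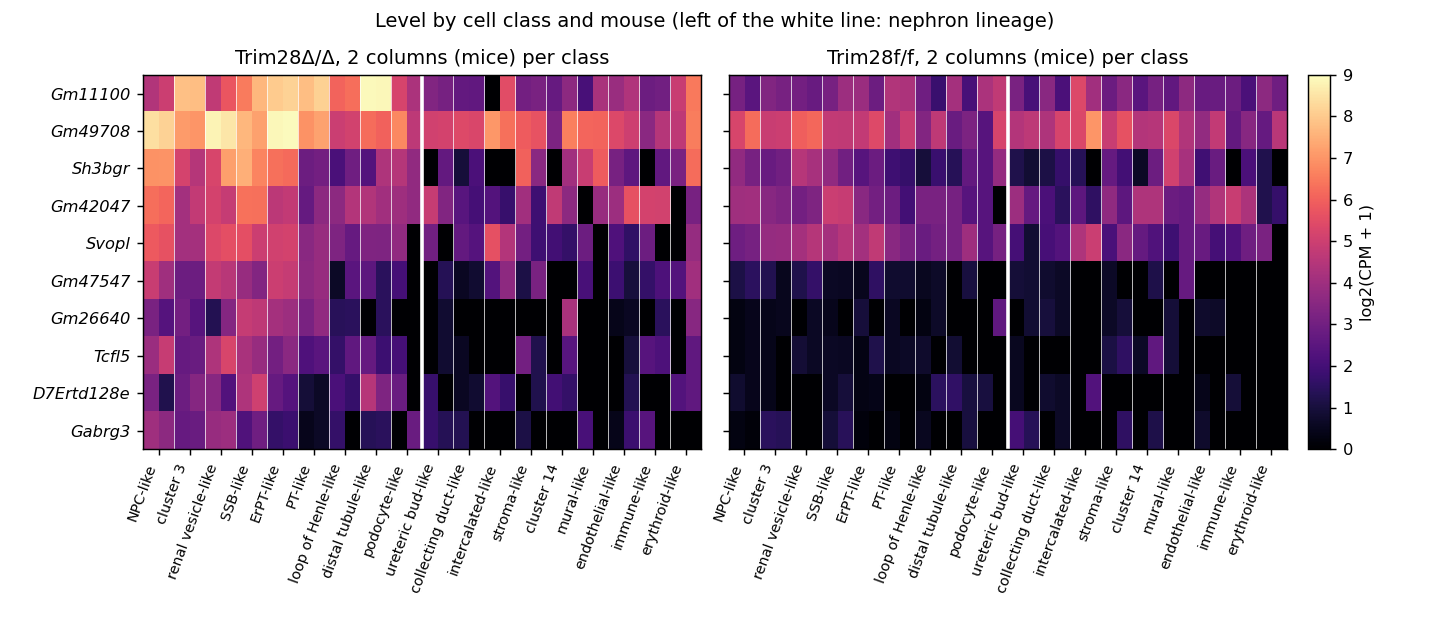
Level of the 10 genes as log2(CPM + 1) (color) in 18 cell classes with 2 columns for the 2 mice of each genotype, Trim28Δ/Δ on the left and Trim28f/f on the right; classes left of the white line belong to the nephron lineage. The brightest cells are Gm49708 in ErPT-like cells (474 and 493 CPM) and Gm11100 in distal tubule-like cells (485 and 466 CPM) of Trim28Δ/Δ mice, and most of the 5 genes near 0 in controls are dark right of the line and throughout the right panel.

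How the molecules of each gene were spread over the cells of a class was read next. Sh3bgr was patchy. Its 118 and 179 UMIs in NPC-like cells of Trim28Δ/Δ mice 1 and 2 came from 13 of 47 and 23 of 74 cells, 27.7% and 31.1%, whereas 88.8% and 87.5% of cells would have held at least 1 UMI had each cell the mean level of the class at its own depth. Those 13 and 23 cells held 9.08 and 7.78 UMIs each, up to 31 and 47 in a single cell, and the 10% of cells with the most UMIs held 77.1% and 74.9% of them. In the control NPC-like cells the gene was found in 13.6% and 8.21% of cells at 1.69 and 1.91 UMIs per cell that held it.

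Tcfl5 and Gm47547 were close to the share given by an even level. Their means in NPC-like cells of the Trim28Δ/Δ mice were 21.4 and 22 CPM, against 52.8 CPM for Svopl and 123 CPM for Sh3bgr. At few UMIs per cell the shares lie nearer each other even for an uneven gene. The genes were not compared at equal counts, so whether their spread differs was not tested. Tcfl5 was found in 25.5% and 40.5% of NPC-like cells of the Trim28Δ/Δ mice, against 25.3% and 41.2% at an even level, and Gm47547 in 42.6% and 27%, against 43.6% and 25.2%. Svopl lay between, at 34% and 29.7% against 66.3% and 59.2%. Gm11100 in PT-like cells was found in 74.8% and 83.8% of cells against 98.2% and 99.2%, with up to 41 and 55 UMIs in a cell.

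**Figure D4:**
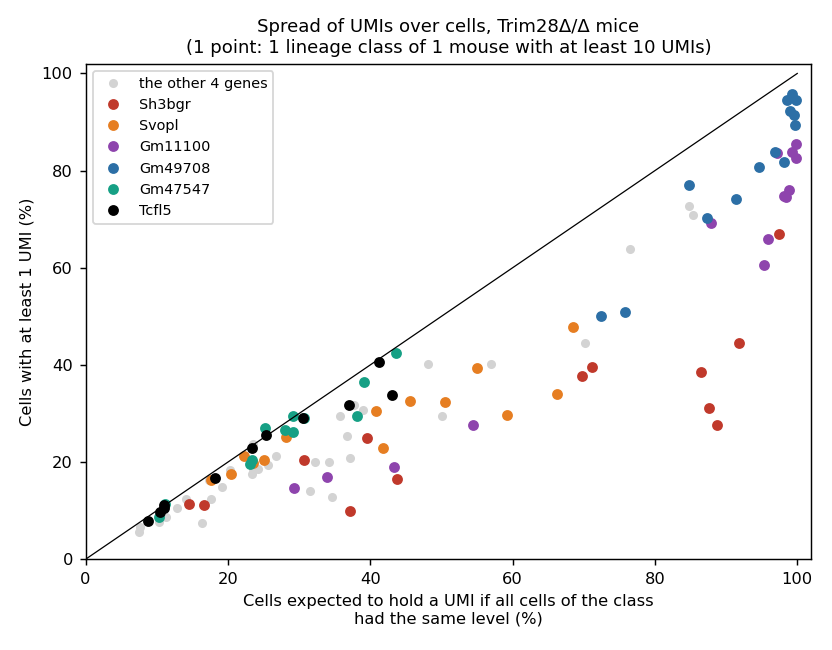
Share of cells with at least 1 UMI of a gene (vertical, %) against the share expected if all cells of the class held the gene at the same level (horizontal, %), in 7 lineage classes of the 2 Trim28Δ/Δ mice, 1 point per gene, class and mouse with at least 10 UMIs; the line marks equality. Tcfl5 (black) and Gm47547 (green) lie near the line, and Sh3bgr (red) lies far below it, with 27.7% against 88.8% in NPC-like cells of mouse 1. Genes with few UMIs per cell lie nearer the line even where uneven.

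Outside the lineage none of the 10 genes was called in a class (edgeR quasi-likelihood test, lowest adjusted p = 0.367). Only 5 of them, Gm49708, Gm11100, Gm42047, Sh3bgr and Svopl, had enough counts to be tested there, in 22 fits over the 9 classes, of which 6 had an unadjusted p under 0.05, and DESeq2 called none either. Over all genes, such a p was held by 702 of 11060 in endothelial-like, 179 of 2371 in erythroid-like and 201 of 4827 in mural-like cells. It was held by 433 of 8885 in stroma-like, 323 of 10879 in collecting duct-like and 353 of 9707 in ureteric bud-like cells. In immune-like cells it was 308 of 6933, in intercalated-like cells 416 of 6333 and in the unnamed cluster 14 it was 460 of 7243. Of all genes tested, 0.0471% were called in at least 1 of these classes, so few calls were made there in any gene. The lowest unadjusted p belonged to Sh3bgr in stroma-like cells, at 65 and 10.8 CPM against 5.67 and 2.93 CPM (log2 2.98, SE 0.75, adjusted p = 0.867), where 32 of the 54 UMIs of mouse 1 came from a single cell. Without the filter on low counts Sh3bgr was called there (adjusted p = 1.93e-07) and in erythroid-like cells (adjusted p = 0.000445), and Gm11100 in endothelial-like cells (adjusted p = 0.0164), against 3.81% of all genes called. Without mouse 1, 3 of the 5 were called (Gm11100, Gm49708 and Sh3bgr), against 0.487% of all genes tested, and without mouse 4, 3 of the 5 (Gm11100, Gm42047 and Gm49708), against 31%.

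Summed over all cells outside the lineage, 8 of the 10 genes were higher in both Trim28Δ/Δ mice than in both controls, against 24.3% of all genes. Control levels there may be low by the choice of the genes. Sh3bgr stood at 11.6 and 10.5 CPM against 4.33 and 4.08 CPM, and Gm47547 at 1.69 and 3.04 CPM against 0.36 and 0.6 CPM, both well below their lineage levels. Svopl (6.49 and 4.05 against 4.99 and 6.12 CPM) and Gm26640 (0.13 and 1.69 against 0.48 and 0.48 CPM) overlapped. In some single classes the means were higher than in the sum. Those of Sh3bgr were 43.3 CPM (SD 20.3) against 25.1 CPM (SD 11.1) in mural-like cells. They were 41.7 (SD 47.4) against 0.698 CPM in erythroid-like and 37.9 (SD 38.3) against 4.3 CPM in stroma-like cells. Gm47547 stood at 9.83 (SD 8.1) in erythroid-like and 7.8 CPM (SD 5.34) in intercalated-like cells, against 0 CPM in controls. By class, 5 of 10 were higher in both Trim28Δ/Δ mice in erythroid-like (46.2% of all genes) and immune-like cells (20.1%), 3 in endothelial-like (21.3%) and stroma-like cells (19.1%), 2 in collecting duct-like cells (20.5%), and 1 in ureteric bud-like (18.9%), intercalated-like (21.1%) and mural-like cells (16.5%) and in the unnamed cluster 14 (18.7%). The median difference of the 10 was 0.48 on the log2(CPM + 1) scale, against 2.49 in the lineage and 0.05 over all genes. The share of free RNA estimated for these cells from markers of other cell types was 25.1%, 31.9%, 36.6% and 29.9% in mice 1 to 4, and its part in the difference was not tested.

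Genes within 100000 bp of the 10 were read next. Of 61 such neighbours, 32 were below 1 CPM in all 4 mice, 27 could be tested in at least 1 lineage class and 1 was called, Tmsb10, against 2.82% of all genes tested that were called in at least 1 lineage class (1.62% higher and 1.23% lower). Tmsb10 encodes thymosin beta 10, an actin-binding protein, and it lies 100 bp downstream of Gm26640 on the opposite strand. It rose in ErPT-like cells, from 1073 and 1105 CPM in the controls to 2061 and 1938 CPM (log2 0.86, SE 0.11, adjusted p = 0.00944), and in PT-like cells, from 789 and 846 CPM to 1333 and 1505 CPM (log2 0.78, SE 0.11, adjusted p = 0.0356). Both calls were lost without mouse 1 (log2 0.80 and 0.86, adjusted p = 0.598 and 0.366) and without mouse 2 (log2 0.91 and 0.69, adjusted p = 0.341 and 0.389), and were kept without mouse 3, from which 410 of the 778 ErPT-like cells came (adjusted p = 1.17e-15 and 0.000536) and without mouse 4 (adjusted p = 3.35e-09 and 5.1e-06).

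The median difference of the 61 neighbours in lineage cells was 0.03 on the log2(CPM + 1) scale, and 20 of them were higher in both Trim28Δ/Δ mice. Among the 34 with at least 10 UMIs it was 15 (44.1%), against the 26.9% of all genes with as many. Gabra5, which lies 20484 bp upstream of Gabrg3 and encodes another GABA-A receptor subunit, was nearly unread, with 1, 3, 0 and 0 UMIs in lineage cells of mice 1 to 4. Apart from Tmsb10, the nearest expressed neighbours of the other genes were not called. B3galt5, a galactosyltransferase gene 6866 bp downstream of Sh3bgr, stood at 11.9 and 9.68 CPM against 5.23 and 5.34 CPM, with a lowest adjusted p of 0.554 in any lineage class. Dydc2, which Gm47547 overlaps in antisense, stood at 1.22 and 1.31 CPM against 0.415 and 0.182 CPM (22 and 29 UMIs against 15 and 5). In PT-like cells, the only class in which Dydc2 could be tested, it was higher by 3.18 on the log2 scale and missed the threshold (SE 0.81, adjusted p = 0.222), but passed it without the filter on low counts (adjusted p = 0.00886) and without mouse 4 (adjusted p = 0.0121). Thoc7 and Col9a3, which Gm11100 and Tcfl5 overlap on the opposite strand, differed by 0.08 and -0.16 on the log2(CPM + 1) scale, Klhdc4, 3678 bp upstream of Gm42047, by 0.18, and Hunk, 36371 bp upstream of Gm49708, by -0.26. Usf2, 58802 bp downstream of D7Ertd128e, stood at 50.3 and 49.6 CPM against 63.3 and 54.7 CPM. Atp6v0a4, a proton pump subunit gene 1487 bp upstream of Svopl, differed by 0.75 with a lowest adjusted p of 0.195 in any lineage class. With k-means assignment it was called in SSB-like cells (edgeR adjusted p = 0.0442). Trim24, 17443 bp downstream of Svopl, stood at 73.5 and 74.2 CPM against 48.9 and 55.4 CPM (lowest adjusted p = 0.102). Without the filter on low counts Trim24 was called in PT-like, podocyte-like and cluster 3 cells (edgeR adjusted p = 0.0049, 0.00865 and 0.0155), against 8.21% of all genes.

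**Figure D5:**
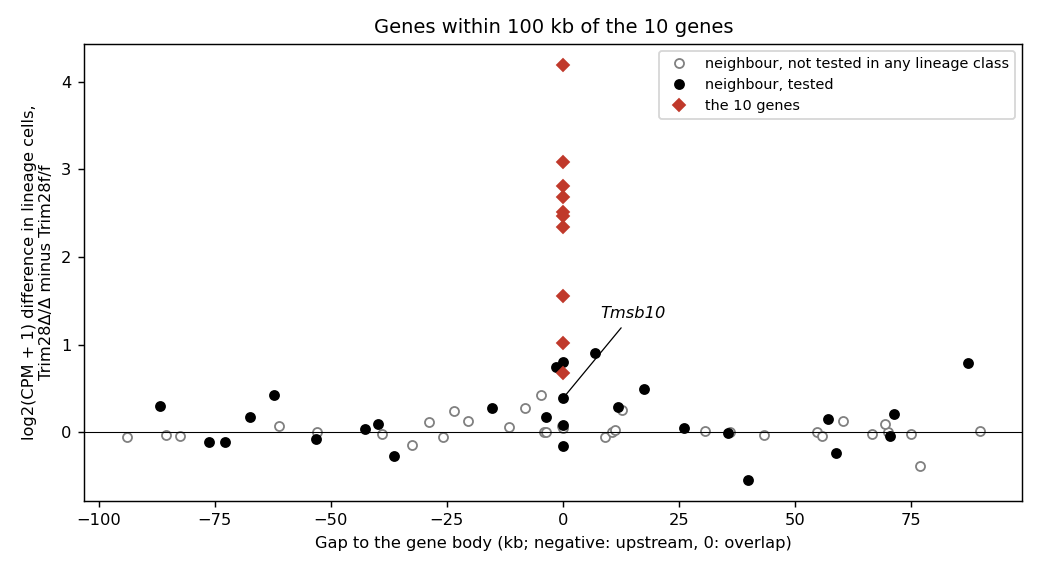
Difference between Trim28Δ/Δ and Trim28f/f lineage cells on the log2(CPM + 1) scale (vertical) of the 61 genes within 100 kb of the 10 genes, by the gap to the gene body in kb (horizontal, negative upstream), and of the 10 genes themselves at 0 (red diamonds). Filled points could be tested in at least 1 lineage class; the 10 genes range from 0.68 to 4.19, and the neighbours have a median of 0.03.

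The transcript ends of some of the 10 genes hold stretches found in transcripts of other genes, which bears on their counts because 3′ sequencing reads RNA ends. The other transcripts were searched over their whole length, so a match need not lie at the end of the other gene. This search was chosen after the data were seen. At least 100 bases at 90% identity in the last 300 bases of a transcript were shared with another gene by 23.6% of all 31991 genes searched. Gm49708 (1 of its 2 transcripts) and Gm47547 share their last bases with each other and with 7 further genes, among them Itga6, Zfp975, Gm8113, Gm47101 and Gm50321, which is identical to Gm49708 over all of the last 300 bases. The end of D7Ertd128e holds a stretch found in 124 other genes on either strand. Of the 5 Svopl transcripts, 1 shares a stretch with Gm20589 and Xrn1 on the opposite strand. No such match was found for Tcfl5, Sh3bgr, Gabrg3, Gm11100 and Gm26640. The last 200 bases of Gm49708, Gm47547 and Gm47101 are shown on the transcript's strand, 5′ to 3′, because they differ at few bases and the counts of all 3 enter the results, and capitals mark bases that differ from Gm49708.
Gm49708, chr16:90341595-90341794, minus strand: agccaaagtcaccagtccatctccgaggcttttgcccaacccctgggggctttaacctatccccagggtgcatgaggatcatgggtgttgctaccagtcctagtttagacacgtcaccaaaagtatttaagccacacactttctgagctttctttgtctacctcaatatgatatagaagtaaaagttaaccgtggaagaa
Gm47547, chr14:41061415-41061614, plus strand: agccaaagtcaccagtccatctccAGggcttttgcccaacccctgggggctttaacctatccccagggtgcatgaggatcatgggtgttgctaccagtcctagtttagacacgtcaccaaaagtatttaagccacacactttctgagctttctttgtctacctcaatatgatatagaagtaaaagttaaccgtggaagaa
Gm47101, chr10:102435344-102435543, plus strand: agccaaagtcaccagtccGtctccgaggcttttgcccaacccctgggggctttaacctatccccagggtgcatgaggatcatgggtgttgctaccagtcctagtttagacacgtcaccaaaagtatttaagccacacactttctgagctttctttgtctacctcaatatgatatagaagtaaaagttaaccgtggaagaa

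Over these 200 bases Gm47547 differed from Gm49708 at 2 bases and Gm47101 at 1. Gm47101 is annotated as a single exon of 275 bases, so all of it lies within the shared stretch. Of 14 genes that match the last or first 300 bases of Gm49708, Gm47547 or Gm42047 on the same strand, 6 could be tested in a lineage class. Gm49083 and Gm46349 match the first bases only. Of the 6, 1 was called (2.82% of all genes tested), Gm47101. It rose in ErPT-like cells from 1.23 and 1.96 CPM to 25.1 and 22.9 CPM (log2 3.96, SE 0.38, adjusted p = 0.00225). It likewise rose in SSB-like (8.97 and 8.64 against 0.389 and 0.488 CPM) and NPC-like cells (14.3 and 9.76 against 1.72 and 1.55 CPM). Its reads could not be separated here from those of Gm49708 and Gm47547, which were picked on this contrast. The calls of Gm47101 are therefore not independent of the choice of the genes. The call of Gm47101 in ErPT-like cells was kept without each mouse in turn, that in NPC-like cells was lost without mouse 1 (adjusted p = 0.628) or mouse 2 (adjusted p = 0.279), and that in SSB-like cells without mouse 3 (adjusted p = 0.0581). Itga6, an integrin gene with 99.3% identity over 276 bases, stood at 153 and 160 CPM in lineage cells of the Trim28Δ/Δ mice against 192 and 142 CPM, with the genotypes overlapping, and Gm8113 at 5.04 and 6.3 against 3.99 and 5.92 CPM. Gm50321 stood at 2.6 and 3.11 against 1.05 and 2.0 CPM and was not called. Its lowest adjusted p was 0.189, in ErPT-like cells (log2 2.62, SE 0.60). Gm8113 was higher by 1.26 in NPC-like cells and was not called there (SE 0.34, adjusted p = 0.131). Without the filter on low counts both were called in these classes (edgeR adjusted p = 0.00131 and 0.0312), against 8.21% of all genes. The last 300 bases of Gm42047 (1 of its 2 transcripts) are shared with 6 genes, of which Sos2, at 16.5 and 16.2 against 18.5 and 16.2 CPM, was the only one above 1 CPM in lineage cells. How reads of near-identical stretches were divided between these genes was not tested, so the levels of Gm49708, Gm47547, Gm47101 and Gm50321 relative to each other are uncertain.

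Relatives of the 10 genes were followed in lists written with earlier results of these data known. Of 18 other GABA-A receptor subunit genes, 13 were below 1 CPM in lineage cells of all 4 mice, 4 could be tested in a lineage class, and 2 rose in 1 class each, Gabrb1 and Gabra2, which encode the beta 1 and alpha 2 subunits. Of all genes tested, 1.62% were called higher and 1.23% lower in at least 1 lineage class, which holds for the lists below as well. Gabrb1 stood at 301 and 277 CPM in podocyte-like cells of the Trim28Δ/Δ mice against 19.2 and 12.8 CPM (100 and 46 UMIs against 18 and 5, log2 4.0, SE 0.34, adjusted p = 0.000244), a class in which Gabrg3 held 1 UMI in all 4 mice. Gabra2 stood at 26 and 15.6 CPM in cluster 3 against 2.11 and 5.72 CPM (log2 2.35, SE 0.45, adjusted p = 0.0375). In ErPT-like cells Gabra2 was higher by 4.57 and missed the threshold (SE 0.81, adjusted p = 0.0592). Gabrg3 had its highest mean in renal vesicle-like cells (13.4 and 14.7 CPM against 0 and 0 CPM), overlapping with NPC-like cells, and stood at 5.84 and 6.06 CPM in cluster 3.

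None of the 3 relatives of Sh3bgr and none of the 2 relatives of Svopl that could be tested was called in a lineage class, nor was any of the 18 germline genes, of which 15 were below 1 CPM in every mouse and 1 could be tested. Of 12 heart and skeletal muscle genes 2 could be tested and Actn2, an actin crosslinker of the muscle Z disc, rose in distal tubule-like cells (32.3 and 22.5 CPM against 5.24 and 1.08 CPM, adjusted p = 0.0182). Of 12 neuron genes 2 could be tested and Elavl4, an RNA-binding protein gene of neurons, fell in NPC-like cells (10.2 and 12.5 against 29.4 and 53.5 CPM, adjusted p = 0.0344). Of the 19 genes of the TRIM28 silencing machinery, all tested, Trim28 alone was called, in the lower direction. Over all genes of each list, read or not, the median difference in lineage cells lay between -0.17 (the silencing machinery) and 0.04 (the GABA-A receptor subunits) on the log2(CPM + 1) scale, against 0.00 over all genes with a UMI there. The filter on low counts favors genes that were read in 1 of the genotypes, so the tested genes do not stand for the lists.

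The genes closest to the 10 in pattern were found by Pearson correlation of log2(CPM + 1) with the mean over the 10. The correlation ran across 72 sums of 18 classes and 4 mice, which share the classes and mice and differ in depth. That mean is high in Trim28Δ/Δ lineage cells by the choice of the 10 genes, which favors genes raised there. Nothing is therefore read from the genotype differences given here. Gm47101 also shares its sequence with Gm49708 and Gm47547. Gm42851 came first (0.840, with 3.77 and 4.77 CPM in Trim28Δ/Δ lineage cells against 0.36 and 0.327 CPM), followed by Gm47101 (0.82), Gm4425 (0.757, with 9.25 and 6.26 against 0.83 and 1.71 CPM), Serf1 (0.706), Pcdhga2 (0.694), C4bp (0.662, with 20.1 and 17.8 against 1.99 and 2.51 CPM), Slc30a3 (0.655), Inpp5f (0.646), 5730507C01Rik (0.645) and Ppp4r4 (0.64). Slc30a3 stood at 2.55 and 2.3 CPM against 1.94 and 2.36 CPM, and the genotypes overlapped.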

How the data were processed

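The single-cell gene expression and multiplexing libraries of 1 pool were analyzed; the 6 bulk RNA samples of the series were not used here. The authors deposited raw UMI counts of 32285 genes and 12 tags in 3921239 barcodes, counted with Cell Ranger (version 6.0.0 by the submitters' processing notes, on GRCm38) and not normalized. The tag list names a mouse and genotype for 4 tags, and the 8 other tags were not used as mice.

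Barcodes were taken as cells with an order-of-magnitude cut on UMIs (24000 expected cells, above 6890 UMIs, 200 genes and at most 10% mitochondrial UMIs) and HTODemux (Seurat 5.3.0, quantile 0.99) gave each its mouse. Those with more than 1 tag were left out as doublets. The 7363 cells were clustered (30 components, resolution 0.8, with 6 of the 10 genes left out of 3000 variable genes) and named by markers of 17 cell types. UMIs were summed per mouse and class (at least 10 cells per mouse). They were tested with edgeR 4.0.16 (filterByExpr, TMM, quasi-likelihood, Benjamini-Hochberg over all genes of a class, threshold 0.05), with DESeq2 1.42.0 as an alternative. Only the edgeR fits were tried on simulated counts. Shares have exact (Clopper-Pearson) 95% intervals. Mice 1 to 4 held 25761268, 31087277, 52777501 and 35851952 UMIs. Ends of transcripts were compared with BLAST+ 2.17.0.

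The 10 genes and all lists were chosen with earlier results of these data known. Named besides them are neighbours called or nearest, list members called, and the 10 genes most alike in pattern; near-copies were chosen later.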

Additional observations from a re-analysis of the deposited data

How the results depend on the processing

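The median difference of the 10 genes in lineage cells (2.49, log2(CPM + 1)) lay between 2.43 and 2.57 when a mouse was left out. It lay at 2.63 with assignment by highest tag share and at 2.84 after subtraction of free RNA. The 10 genes kept their direction under all of these. With a mouse left out this was fixed in advance, since all 10 were higher in both Trim28Δ/Δ mice than in both Trim28f/f mice. As the genes were chosen on this difference, nothing is read from it. Counts of calls depended on the mice. Genes called in at least 1 lineage class numbered 377, with 194 to 5463 when a mouse was left out (194 without mouse 1, 1735 without mouse 3, 5463 without mouse 4; 1.39%, 12.5% and 39.3% of genes tested) and 1876 without the filter on low counts (8.21%). Outside the lineage 6 were called, with 65 to 4171 when a mouse was left out, 40 by DESeq2, 826 without the filter, 10 by k-means assignment and 2 without Scrublet doublets. Members called outside the lineage went from 0 to 2 (Gm11100 and Sh3bgr) without the filter (3.81% of all genes) and to between 0 and 3 without a mouse. Called neighbours went from 1 to 5 without the filter, to 2 by k-means assignment, highest tag share or a minimum of 2500 UMIs (3.46%, 3.36% and 3.26% of all genes), and to between 0 and 16 without a mouse (16 without mouse 4); at 50000 bp there was 1. Called near-copies went from 1 to 4 without the filter and to between 1 and 4 without a mouse (3 without mouse 3, 4 without mouse 4). The cause was not tested; with a lone mouse the spread is that of the other genotype. Between PT-like and NPC-like cells 8 to 9 of the 10 were called under each alternative run, against 29% (DESeq2), 33.7% (no filter) and 56.7% to 60.1% (the others) of all genes. No fit without a mouse was run for it, as the mouse block needs both Trim28Δ/Δ mice. No paired analysis was possible because each mouse has its own number and belongs to 1 genotype.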
